A study of Ceratopteris richardii with 6 samples.

Results

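The genes described here are 106 of 30001 genes of Ceratopteris richardii callus, all with a locus tag and within the limits on mean level given below. The transcripts of these 106 were about 2-fold or more lower in differentiating than in proliferating callus, with no overlap between the libraries of the groups. Ceratopteris richardii is a homosporous fern used as a laboratory model, and callus is an unorganised tissue kept in culture. RNA from callus was sequenced in 6 libraries, 3 of differentiating callus (differentiating 1 to 3, titled MS1 to MS3) and 3 of proliferating callus (proliferating 1 to 3, titled BA1 to BA3), to find genes whose transcripts differ between callus that has begun to differentiate and callus that still proliferates. The labels give no strain, medium, hormone, age or time for either group, and call the 3 libraries of a group biological replicates without saying whether they came from separate cultures. Culture conditions and state therefore cannot be told apart.

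Values are FPKM, a measure of transcript level relative to gene length and sequencing yield, as the authors deposited them. A gene was a member if its ID was a locus tag beginning KP509_, its mean over the 6 libraries was at least 1 and under 1000 FPKM, its mean log2(FPKM + 1) was lower in differentiating callus by at least 1 (about 2-fold), and its lowest proliferating value lay above its highest differentiating value. The same measurements chose the members, so their direction and the distance between their groups are descriptions and carry no test. Of the 21124 locus-tag genes within the limits on the mean, 0.502% met the rule. The groups did not overlap, with differentiating callus lower by any amount, in 1963 of them (9.29%), and the limit on size left the 106. With limma across all 22371 genes averaging at least 1 FPKM, 0 genes (0%) were lower and 0 (0%) differed in either direction, where a call needed a Benjamini-Hochberg adjusted p under 0.05 together with a 2-fold difference (1 on the log2 scale). At an unadjusted p under 0.05 limma counted 2843 genes, 1606 of them lower in differentiating callus. Without differentiating 3 limma called 337 genes, 206 of them lower. With the replicate number as a block, which pairs same-numbered libraries, it called 112 genes, 55 of them lower. Whether the libraries are paired is not known. The members thus share groups that do not overlap and a minimum size of difference. None passed the test with all 6 libraries and group as its only term.

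In plants, callus grows as dividing cells without organs, and differentiation begins when some of these cells organise into meristems from which shoots or roots form. In flowering plants this step is known to involve genes of the cell cycle, of hormone responses, of cell walls and of photosynthesis. The deposited file pairs no ID with a name, and the reference table (assembly C.richardii_v2), which held all 28430 locus tags of the file among its 36816 genes, gave 0 symbols other than the tags themselves. No function is therefore stated for any gene here, no list of marker genes could be matched to check that the tissue is callus, and members are described by level, library pattern and place in the gene order. In bulk tissue, fewer cells of a type and less RNA per cell cannot be told apart.

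The libraries did not separate cleanly by group. Across tested genes, differentiating 3 correlated more closely with proliferating 1 (Pearson r = 0.981 on log2(FPKM + 1)) and proliferating 3 (0.974) than with differentiating 1 (0.956) and 2 (0.922). Proliferating 2 was closest to differentiating 1 (0.965). Genes are not independent, so these values only describe the libraries. Summed FPKM ran from 953954 to 1027755 per library, and the number of reads is unknown, so no counting error can be given for a gene. Whether any library carries the wrong label could not be checked, since no gene in the file is known to mark either state, and every difference between the groups below takes the labels as given. The counts of members, of members low in differentiating 3 and of neighbouring pairs are given with and without these libraries where such a count exists. The transcript share, the genes next to members, the likeness search and the genes higher in differentiating callus were computed with all 6 libraries only.

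The median level of the members was near that of the 21124 genes, and most members were just past the size limit. Their mean level ran from 1.44 to 308 FPKM (median 12.8 FPKM, against 14.2 FPKM over the 21124 genes). Members averaging 1 to 10 FPKM numbered 50 (0.602% of such genes), those at 10 to 100 FPKM 46 (0.410%), and those at 100 FPKM or more 10 (0.623%). The log2 difference, differentiating minus proliferating, ran from -2.92 to -1.0 with a median of -1.22, and the median over all tested genes was -0.0011. It was at or below -1.5 in 16 members and at or below -2 in 4. As ratios of group means, members were between 1.96-fold and 10.2-fold lower, with a median of 2.52-fold.

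**Figure D1:**
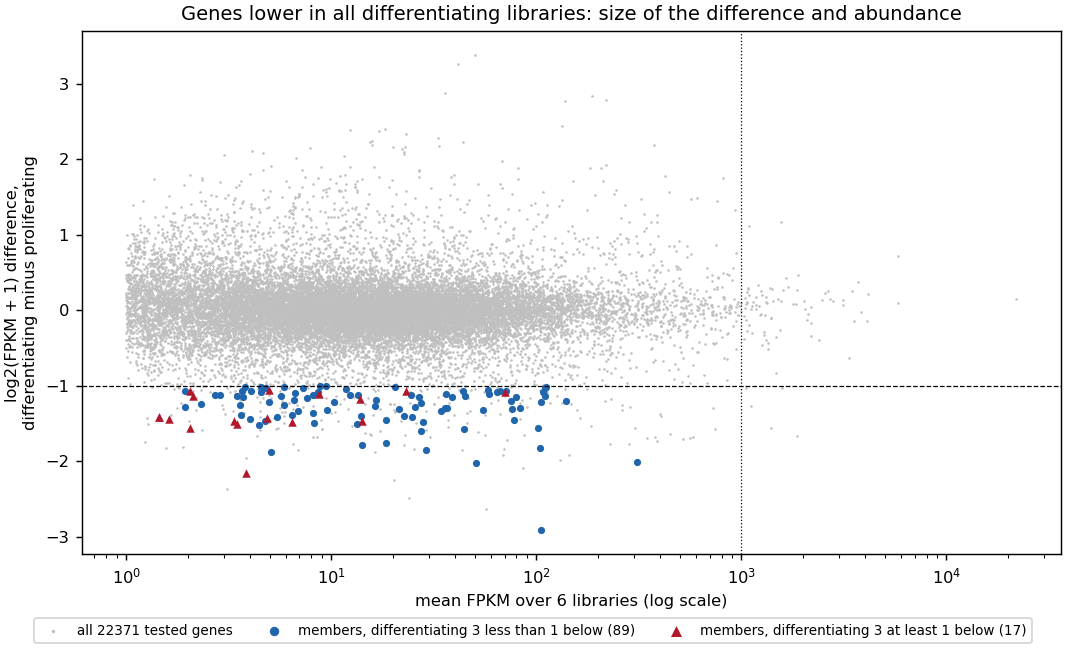
Mean FPKM over the 6 libraries (x axis, log scale) against the difference in mean log2(FPKM + 1), differentiating minus proliferating (y axis), for the 22371 tested genes (grey), the 17 members at least 1 below the proliferating mean in differentiating 3 (red triangles) and the other 89 members (blue circles). Most members lie just under the dashed line at the size limit of the rule, and the dotted line marks its upper limit of 1000 FPKM.

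For the 2 genes named on each side of the size limit the log2 differences were alike, while their levels were not. KP509_11G058600, the last gene inside, had 3.99, 5.39 and 8.64 FPKM in the differentiating libraries, against 12.3, 9.50 and 16.8 FPKM in the proliferating ones. KP509_24G020400, next to it inside, had 5.07, 4.78 and 6.65 FPKM, against 11.6, 9.28 and 15.8 FPKM. Both differed by -1.0 on the log2 scale. Just outside, KP509_15G047800 had 0.60, 0.51 and 2.47 FPKM in differentiating callus, against 3.03, 3.19 and 2.95 FPKM in proliferating callus. KP509_09G058400, also outside, had 0.57, 0.37 and 1.43 FPKM, against 2.84, 1.53 and 3.28 FPKM. These 2 genes, at lower levels than the 2 inside, also differed by -1.0 after rounding, and with a pseudocount of 0.1 in place of 1 their differences were -1.61 and -1.69.

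Together the members, which were 0.474% of the tested genes, took a small share of the transcript pool. In proliferating callus it was near their share by number. Their summed FPKM was 0.143%, 0.124% and 0.310% of the total in differentiating 1, 2 and 3, against 0.452%, 0.378% and 0.570% in proliferating 1, 2 and 3. The groups averaged 0.193% ± 0.103 and 0.467% ± 0.0969 (SD, n = 3 each). Differentiating 3 had the highest share of its group and lay nearer to proliferating 2 than to differentiating 1. The median member stood at 5.04, 5.33 and 10.1 FPKM in differentiating 1, 2 and 3, and at 17.0, 15.1 and 19.5 FPKM in proliferating 1, 2 and 3. No member was under 1 FPKM in a proliferating library, while 15, 12 and 7 members were under 1 FPKM in differentiating 1, 2 and 3, and 7 members were listed at 0 in at least 1 differentiating library. The rule puts every proliferating value above every differentiating one and asks for a mean of at least 1 FPKM. This contrast and the lower share in differentiating callus therefore follow largely from the rule.

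Within each group most members shared an order of libraries. The rule does not name this order, but it was read from the measurements that chose the members. Differentiating 3 was the highest differentiating library in 88 of 106 members (83.0%, against 35% of the 21124 genes) and the lowest, ties included, in 7 (against 41.7%). Proliferating 3 was the highest proliferating library in 79 members (74.5%, against 29.6%), and proliferating 2 the lowest in 75 (70.8%, against 24.7%). Both libraries numbered 3 were the highest of their groups in 69 members (65.1%, against 13.7%). The spread within a group was wider than usual. The median SD of log2(FPKM + 1) over members was 0.58 in differentiating and 0.37 in proliferating callus, against 0.19 and 0.20 over all tested genes, and it was larger in differentiating callus in 85 members.

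The 2 libraries facing each other across the gap were usually differentiating 3 and proliferating 2. Differentiating 3 was the highest differentiating library and proliferating 2 the lowest proliferating one in 64 members. The gap between them, lowest proliferating minus highest differentiating value, had a median of 0.28 on the log2 scale, was under 0.1 in 26 members and reached 0.5 in 29. It was narrowest in KP509_29G017700, with 5.75 FPKM in differentiating 3 and 5.76 FPKM in proliferating 2. KP509_1Z213400, the next narrowest, had 33.4 and 33.6 FPKM in those libraries. The widest gap, 1.09, was in KP509_01G127500, named after its values were seen, which had 0.65, 0 and 0.65 FPKM in the differentiating libraries, against 3.34, 2.51 and 2.56 FPKM in the proliferating ones.

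**Figure D2:**
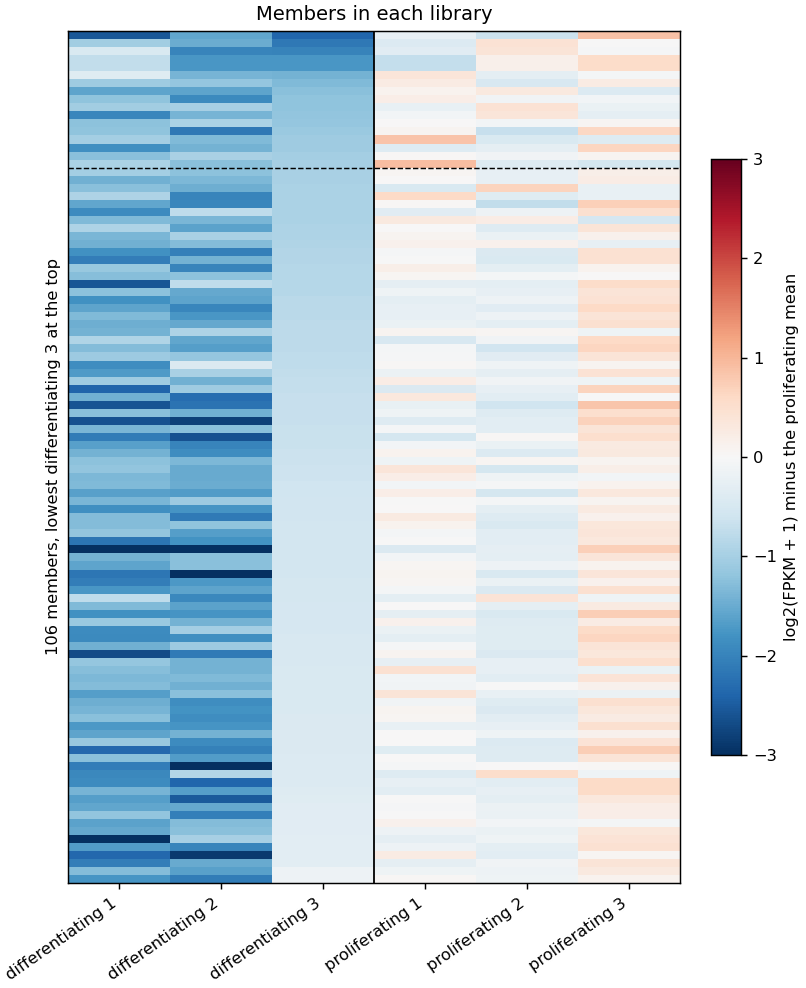
Each row is 1 of the 106 members, ordered by differentiating 3, and each column 1 library (differentiating left of the black line), coloured by log2(FPKM + 1) minus the member's proliferating mean and saturated at 3 in either direction, with a dashed line below the 17 members at least 1 lower in differentiating 3. Differentiating 1 and 2 are blue in nearly all rows, the column of differentiating 3 pales downward, and proliferating 3 is mostly the reddest column.

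Most members were low in differentiating 1 and 2 and only part of the way down in differentiating 3. The level was at least 1 below the proliferating mean on the log2(FPKM + 1) scale in 97 members in differentiating 1 and 96 in differentiating 2 (3.12% and 3.69% of the 21124 genes), but in 17 in differentiating 3 (16% of members, against 0.833% of those genes). The median distance from the proliferating mean was -1.42, -1.55 and -0.64 in differentiating 1, 2 and 3. In 9 members all 3 differentiating libraries were at least 1 below. Taking the proliferating mean as 0 and the mean of differentiating 1 and 2 as 1, differentiating 3 stood at a median of 0.41. It stood under 0.5 in 64 members, between 0.5 and 1 in 33, and at 1 or beyond in 9. The rule holds every member's differentiating 3 below its proliferating values, so the sign of these positions is fixed. It also asks that the 3 differentiating libraries average at least 1 below the proliferating mean. The counts of members at least 1 below therefore follow in part from the rule, and the shares over the 21124 genes are not a matched background.

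The members with the largest differences were nearly all of the graded kind. KP509_11G015800, the first of them, had 7.45, 9.29 and 108 FPKM in the differentiating libraries, against 117, 131 and 263 FPKM in the proliferating ones. Its log2 difference of -2.92 was -4.10 without differentiating 3. KP509_26G010900, also the most abundant member, had 99.8, 44.2 and 310 FPKM in differentiating callus, against 481, 329 and 585 FPKM in proliferating callus. In both genes the differentiating 3 value lay just under the lowest proliferating value. KP509_26G010900 averaged 151 ± 140 FPKM in differentiating and 465 ± 129 FPKM in proliferating callus (SD, n = 3 each), and its log2 difference of -2.01 was -2.75 without differentiating 3 and -1.36 without differentiating 2.

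The same shape recurred in most of the next members by size. KP509_01G072900 had 23.7, 30.7 and 90.7 FPKM in the differentiating libraries, against 126, 96.0 and 260 FPKM in the proliferating ones. KP509_1Z213400, on a sequence not placed on a chromosome, had 7.41, 4.85 and 33.4 FPKM, against 50.1, 33.6 and 44.1 FPKM. In each, differentiating 1 and 2 were close together and far below the third library. KP509_07G076500 had 4.07, 2.58 and 12.8 FPKM in differentiating callus, against 14.0, 21.2 and 30.0 FPKM in proliferating callus. KP509_21G056600 had 3.39, 5.47 and 19.0 FPKM, against 28.9, 19.9 and 34.5 FPKM. KP509_05G018600 had 6.54, 8.46 and 27.8 FPKM, against 29.2, 28.8 and 63.6 FPKM. The log2 differences of these 5 genes lay between -1.85 and -1.61, and between -2.62 and -2.20 without differentiating 3.

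The exception among the largest differences was KP509_39G058500. It had 0.24, 1.43 and 0.38 FPKM in the differentiating libraries, against 5.06, 3.62 and 12.2 FPKM in the proliferating ones, so differentiating 3 was close to differentiating 1. Its means were 0.683 ± 0.650 and 6.97 ± 4.61 FPKM (SD, n = 3 each), which is 10.2-fold lower in differentiating callus, the largest ratio of means among the members. Its log2 difference was -2.16, and -3.30 with a pseudocount of 0.1.

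The most abundant members after KP509_26G010900 differed less in size and kept the same graded order. KP509_07G011000 had 81.3, 44.2 and 148 FPKM in differentiating callus, against 186, 164 and 214 FPKM in proliferating callus. Its log2 difference of -1.20 was -0.77 without differentiating 2. KP509_04G093700 had 50.1, 50.7 and 116 FPKM, against 145, 132 and 171 FPKM. KP509_16G071700 had 49.2, 59.9 and 114 FPKM, against 129, 126 and 183 FPKM. In all 3 genes differentiating 3 was the only differentiating library above 100 FPKM. KP509_32G051900 had the tightest groups of these, with 57.4, 69.0 and 99.3 FPKM (mean 75.2 ± 21.6, SD, n = 3) in differentiating callus, against 147, 143 and 158 FPKM (149 ± 7.79) in proliferating callus.

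The 17 members already low in differentiating 3 were mostly of low abundance. They averaged 1.44 to 70.8 FPKM (median 3.83 FPKM, against 16.4 FPKM in the other 89 members). They made up 13 of the 50 members at 1 to 10 FPKM, 4 of the 46 at 10 to 100 FPKM and 0 of the 10 above that. Their medians below the proliferating mean were -1.06, -1.41 and -1.20 in differentiating 1, 2 and 3, against -1.45, -1.58 and -0.56 in the other 89. With the lowest proliferating library in place of the proliferating mean, 8 members were at least 1 below in differentiating 3 (0.185% of the 21124 genes). The count of 17 depends on the pseudocount, and was 43 of 168 members at 0.1, since the added constant shrinks differences of weakly expressed genes. With 1 of the other 5 libraries left out, the genes then chosen differed in number. Low in differentiating 3 were 29 of 96 without differentiating 1 and 33 of 97 without differentiating 2. Without proliferating 1, 2 and 3 in turn they were 33 of 148, 48 of 394 and 25 of 99.

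In 9 members differentiating 3 was at or beyond the mean of the other differentiating libraries. KP509_01G126900 went furthest, with 1.13, 0.58 and 0 FPKM in the differentiating libraries, against 2.32, 4.95 and 3.35 FPKM in the proliferating ones. KP509_14G046400 had 14.4, 4.36 and 4.28 FPKM, against 15.5, 26.4 and 19.7 FPKM. KP509_30G059400 had 5.03, 1.97 and 1.93 FPKM, against 9.03, 5.32 and 6.48 FPKM. In the last 2 of these genes it was differentiating 1 that stood near the proliferating values. KP509_19G032400 and KP509_24G066400 had the same FPKM in every library, 0.99, 0 and 0 in differentiating callus and 1.05, 2.72 and 3.90 in proliferating callus. Genes with equal values may be near-identical copies whose reads the authors' quantification divided, so these 2 members are uncertain and may be 1 measurement. KP509_05G043300 and KP509_09G049700, both members, were equal in 5 of 6 libraries, so 4 members in all carry this uncertainty. All 4 are among the 17 members low in differentiating 3, so that count may hold fewer separate measurements.

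Some members were low at an even level in all 3 differentiating libraries, and the 3 that follow were picked with their values in view. KP509_10G034700 had 39.98, 48.4 and 47.0 FPKM in differentiating callus, against 98.3, 89.5 and 101.25 FPKM in proliferating callus. KP509_36G027900 had 4.66, 5.89 and 4.94 FPKM, against 12.3, 11.6 and 12.9 FPKM. KP509_26G042800 had 14.6, 15.2 and 13.0 FPKM, against 26.5, 42.3 and 26.9 FPKM. In these genes no differentiating library stood apart from the other two. At the opposite end, KP509_14G046000 had the position of differentiating 3 nearest to proliferating callus. It had 13.0, 10.2 and 41.9 FPKM in differentiating callus, against 47.7, 42.3 and 50.3 FPKM in proliferating callus. KP509_14G046000 stood at 0.08 on the same measure and KP509_29G017700 at 0.10. KP509_1Z213400, KP509_11G015800 and KP509_11G032700 followed at 0.12, 0.13 and 0.16.

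**Figure D3:**
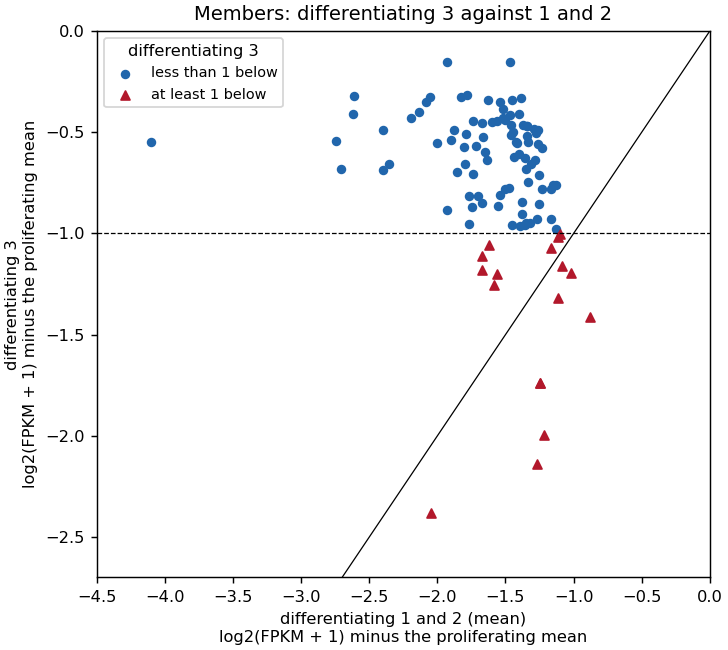
Each point is a member, placed by the mean of differentiating 1 and 2 (x axis) and by differentiating 3 (y axis), both as log2(FPKM + 1) minus the proliferating mean, with the 17 members at or below the dashed line at -1 as red triangles and the other 89 as blue circles. Most members lie above the solid line of equal values, with differentiating 3 nearer to the proliferating mean than differentiating 1 and 2.

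To read genes in a library that had no part in choosing them, the rule was applied to 5 libraries and the chosen genes were looked up in the library left out. The chosen genes are not the same set as the 106 members. Chosen without differentiating 1, 96 genes were found, and in 79 (82.3%) differentiating 1 lay below every proliferating library, against 27.3% of all genes eligible on the same 5 libraries. Chosen without differentiating 2, the count was 72 of 97 (74.2%, against 33.9%). Chosen without proliferating 1 and without proliferating 3, the left-out library lay above every differentiating library in 119 of 148 genes (80.4%, against 28%) and in 87 of 99 (87.9%, against 29.6%). For these 4 libraries most of the chosen genes kept their side in the library not used. The libraries it was read against did take part in the choice, which by itself raises these shares. The shares over all eligible genes are therefore not a matched background, and the excess over them was not tested. Members among the chosen genes numbered 75, 68, 94 and 79 in the same order. A member keeps its side in every library by definition.

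Differentiating 3 and proliferating 2 did not follow the other libraries to the same degree. Without differentiating 3 the rule chose 566 genes, of which 189 (33.4%) had differentiating 3 below every proliferating library, against 23.8% of eligible genes. Differentiating 3 was at least 1 below the proliferating mean in 17 of the 566 (3.00%, against 0.851%), and the median distance was -0.24 where differentiating 1 and 2 together gave -1.31. Without proliferating 2 the rule chose 394 genes, and in 143 (36.3%, against 30.7%) proliferating 2 lay above every differentiating library. Its median distance from the differentiating mean, as differentiating minus proliferating, was -0.64 where the other libraries gave -1.24. The direction alone was kept in 447 of the 566 genes (79.0%, against 53.6%) and in 367 of the 394 (93.1%, against 59.8%). Here too the libraries read against took part in the choice. Shares above those of all eligible genes therefore do not show that differentiating 3 or proliferating 2 followed its group. Of the 106 members, 105 were among the 566 and 102 among the 394.

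The condition on overlap removed more genes than it kept. Of 275 genes lower by at least 1 on the log2 scale (1.3% of the 21124), 169 had groups that overlapped. In 153 of these the groups no longer overlapped once differentiating 3 was left out, and in 108 once proliferating 2 was. Leaving out any other single library separated the groups in 1 to 13 of them.

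**Figure D4:**
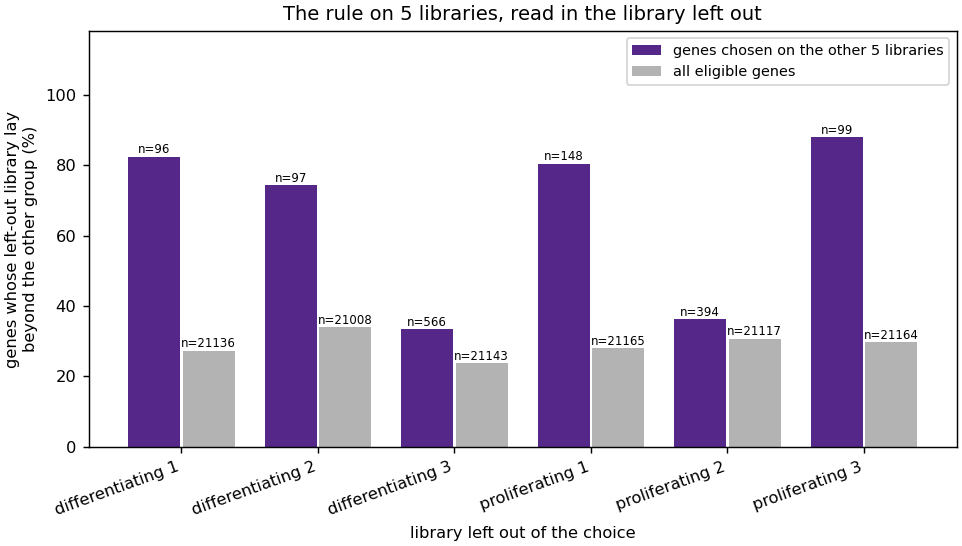
Share in percent (y axis) of genes chosen by the rule on 5 libraries (purple, n genes) and of all genes eligible on them (grey) whose left-out library (x axis) lay beyond every library of the other group. The purple bars stand between 74.2% and 87.9% for 4 libraries, and at 33.4% for differentiating 3 and 36.3% for proliferating 2. The grey bars are not a matched background, since the libraries read against took part in choosing the purple genes.

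The members were spread over 34 of 39 chromosomes, with 5 on unplaced sequences, and 11 of the 101 placed members had another member as the next gene. This is 10.9% of placed members, where 0.698% of the 20066 placed genes within the limits on the mean had a member next to them. The 11 fell into 5 runs, 1 of 3 genes and 4 of 2, which make 6 neighbouring pairs. The larger sets chosen without differentiating 3 (566 genes) and without proliferating 2 (394 genes) held 67 and 35 such pairs. Larger sets hold more pairs, and no background share is given for these 2 sets. Chromosome 11 held the most members, 8 of 586 genes (1.37%), and chromosome 8 the highest share, 6 of 393 (1.53%). Neighbours were read from the order of the reference assembly, and its coordinates are left out, since no source names the build the authors used. Neighbouring genes that are copies of each other could share reads, and their part in the runs was not tested.

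The run of 3 was on chromosome 29. KP509_29G064000 had 25.3, 40.8 and 59.9 FPKM in differentiating callus, against 110, 80.4 and 151 FPKM in proliferating callus. KP509_29G064100 had 4.38, 17.9 and 16.8 FPKM, against 25.7, 25.2 and 46.1 FPKM. KP509_29G064200 had 3.50, 18.5 and 30.0 FPKM, against 31.0, 34.6 and 50.8 FPKM. All 3 were lowest in differentiating 1 and highest in proliferating 3, and their log2 differences were -1.45, -1.40 and -1.48. Without differentiating 1, those of KP509_29G064100 and KP509_29G064200 were -0.81 and -0.66. The genes on either side, KP509_29G063900 and KP509_29G064300, differed by -0.45 and 0.61, with groups that overlapped.

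On chromosome 11, KP509_11G015700 stood beside KP509_11G015800. It had 11.2, 9.88 and 46.0 FPKM in differentiating callus, against 56.9, 59.4 and 121 FPKM in proliferating callus. In both genes differentiating 3 was the highest differentiating library and proliferating 3 the highest proliferating one. The next gene, KP509_11G015900, had 6.25, 6.16 and 14.4 FPKM, against 13.0, 9.54 and 22.6 FPKM (log2 difference -0.71), with differentiating 3 above proliferating 1 and 2. Farther along, KP509_11G032700 had 1.09, 0 and 5.67 FPKM in differentiating callus, against 7.62, 7.96 and 8.04 FPKM in proliferating callus. KP509_11G032800 had 2.48, 2.62 and 7.61 FPKM, against 9.12, 7.95 and 19.3 FPKM. The log2 difference of KP509_11G032700 was -1.88, and it was -1.25 without differentiating 2.

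The genes flanking that second pair on chromosome 11 had the same pattern at higher levels. KP509_11G032600 had 46.6, 34.4 and 100 FPKM in differentiating callus, against 123, 90.7 and 166 FPKM in proliferating callus. KP509_11G032900 had 39.98, 32.2 and 90.8 FPKM, against 112, 73.3 and 116 FPKM. KP509_11G033000 had 32.2, 24.5 and 88.2 FPKM, against 123, 75.4 and 158 FPKM. In each the groups overlapped because differentiating 3 was above proliferating 2. The log2 differences of these 3 genes were -1.16, -0.99 and -1.44, so 5 neighbouring genes were lower together. The other runs were KP509_26G042800 with KP509_26G042900 and KP509_37G018400 with KP509_37G018500, whose log2 differences lay between -1.33 and -1.02.

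**Figure D5:**
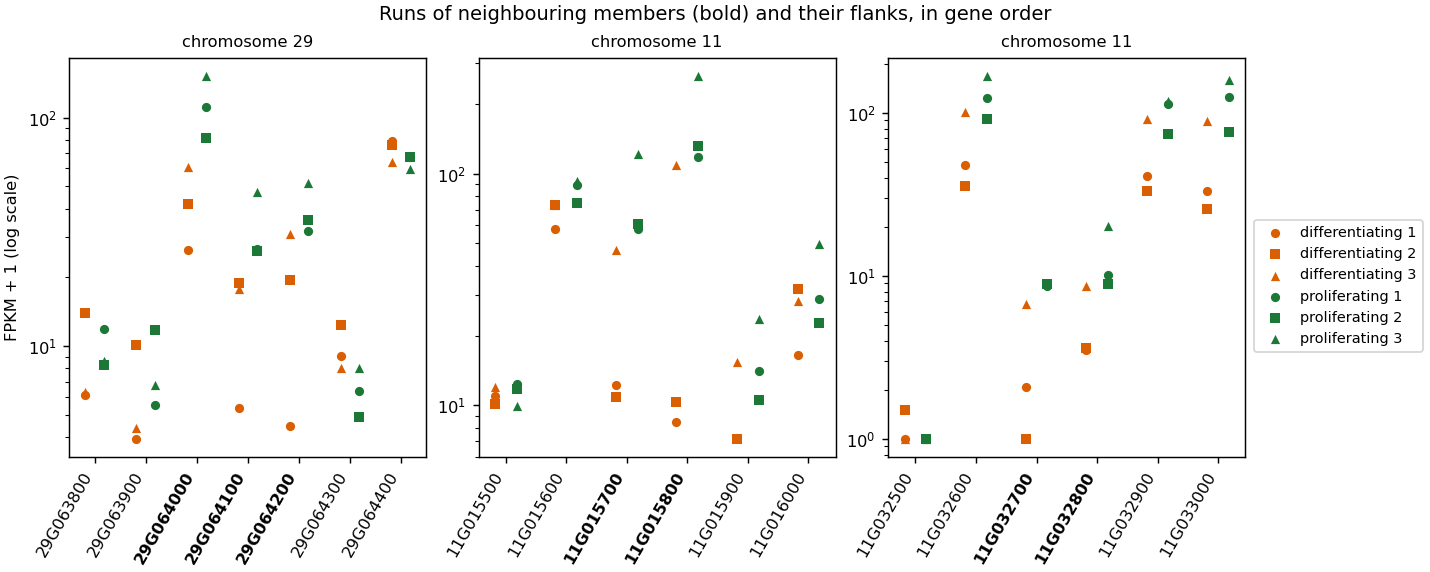
FPKM + 1 on a log scale (y axis) for genes in chromosomal order (x axis, members in bold, prefix KP509_ left out) in 3 runs of neighbouring members, with differentiating libraries in orange at the left of each pair, proliferating libraries in green, and circles, squares and triangles for libraries 1, 2 and 3. In the panels of chromosome 11 the orange triangle of differentiating 3 stands above the other orange symbols in each member.

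Genes next to a member were also lower more often than other genes. Of 129 tested neighbours that were not members, 87 (67.4%) had a difference below 0 and 7 (5.43%) were lower by at least 1, against 50.0% and 1.28% of the 20150 tested genes placed on chromosomes. Their median log2 difference was -0.17. All 7 were kept out because differentiating 3 was at or above the lowest proliferating library. KP509_10G050800, next to the member KP509_10G050900, had 128, 95.4 and 314 FPKM in differentiating callus, against 443, 265 and 479 FPKM in proliferating callus. KP509_01G073000, next to KP509_01G072900, had 15.8, 9.90 and 51.9 FPKM, against 63.9, 32.5 and 241 FPKM. A single neighbour was higher by at least 1. KP509_26G010800, next to KP509_26G010900, had 8.33, 10.3 and 2.40 FPKM in differentiating callus, against 1.04, 0.84 and 1.23 FPKM in proliferating callus, so every differentiating library lay above every proliferating one. These 3 neighbours were named after their values were seen.

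Among the genes most like the 3 largest members in shape a single gene was a member, where members were 0.474% of the genes searched. Over the 6 libraries and 22371 genes, log2(FPKM + 1) of KP509_11G015800 correlated best with KP509_01G126600 (Pearson r = 0.998) and KP509_15G007600 (0.997), which differed by -0.36 and -0.66. For KP509_39G058500 the best were KP509_21G052300 and KP509_23G012100 (both 0.996), with differences of -0.35 and -0.54. For KP509_11G015700 they were KP509_35G046600 and KP509_12G070200 (both 0.999), of which KP509_35G046600 is a member. KP509_35G046600 had 8.27, 7.99 and 21.4 FPKM in differentiating callus, against 25.1, 24.8 and 41.2 FPKM in proliferating callus. With 6 points and so many genes searched, high values of r arise readily, and these are descriptions.

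Genes that met the same rule in the other direction numbered 164. Differentiating 3 was the differentiating library nearest to proliferating callus in 87.8% of them and in 83.0% of the members. Differentiating 3 was at least 1 above the proliferating mean in 49 of the 164 (29.9%), and at least 1 below it in 17 of the 106 members (16%). Neighbouring pairs numbered 2 in the 164 and 6 in the 106. None of these differences was tested.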

How the data were processed

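Polyadenylated RNA from callus was copied with random primers and, per the labels' protocols, read on the DNBSEQ platform at 150 bp from each end. The authors deposited FPKM per gene and library, with 2 decimals and 1 column per library. Per the submitters' processing notes, the tools were RSEM, DESeq2, Bowtie2 2.2.5 and HISAT2 2.1.0, with no role stated. The sources used here do not give the genome build or annotation. FPKM are relative to length and mapped fragments, so depth is unknown and no count model was fitted. On log2(FPKM + 1), limma 3.58.1 in R 4.3.3 was fitted with group as its only term and a mean-variance trend to the 22371 genes averaging at least 1 FPKM, with two-sided tests and Benjamini-Hochberg adjustment over all of them. The code was checked on simulated data with noise independent between libraries. How often the fit finds differences as small as those of most members is not given here. The log2(FPKM + 1) scale understates differences of low genes. Members, runs, leave-outs and shares were computed in Python 3.11.15 with pandas 2.3.3. P-values measure only the spread between these libraries, which may be technical. The members and all lists were chosen with earlier results of these data known. Named genes were the 10 members with the largest differences, the 5 most abundant, the 5 with the lowest and the 5 with the highest position of differentiating 3, the 3 longest runs, the 2 just inside and the 2 just outside the size limit, the 2 narrowest gaps, and the 2 genes most like each of the 3 largest members. Protein and promoter features were planned, and no sequences were used here.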

Additional observations from a re-analysis of the deposited data

How the results depend on the processing

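The calls of limma were 0 under all pseudocounts, scalings, filters and the fit without a trend. They were 112 with the replicate number as a block, and 0 to 337 with 1 library left out, the 337 without differentiating 3. The main fit did not take the numbers to pair the libraries. Libraries with the same number deviated from their group means with r = -0.0955, 0.572 and 0.45 for numbers 1, 2 and 3. Those with different numbers did so with r between -0.635 and 0.343. The values for numbers 2 and 3 were above all of these and that for number 1 was not, so pairing was not settled. The rule gave 168 members with a pseudocount of 0.1, 4 at a log2 difference of at least 2, 275 without the condition on overlap and 22 with each same-numbered pair at least 1 apart (replicate block). With 1 library left out it gave 96 to 566, the highest without differentiating 3 and then 394 without proliferating 2. All 106 were among the 168, and 93 and 95 of them were kept after quantile normalization and median ratio scaling. The median log2 difference was -2.09 at the limit of 2 and between -1.31 and -1.14 with 1 library left out. Members low in differentiating 3 numbered 43 and 27 with pseudocounts of 0.1 and 0.5, 6 with a filter at 5 FPKM, 1 at the limit of 2, 30 without the condition on overlap, 3 under the replicate block, 8 against the lowest proliferating library, and 25 to 48 with 1 library left out. The 25 was of 99 genes and the 48 of 394, so these counts come from sets of different sizes. Of the 566 genes chosen without differentiating 3, 17 were low in it. Neighbouring pairs numbered 1 at the limit of 2, 28 without the condition on overlap, 1 under the replicate block and 4 to 67 with 1 library left out. The 67 was in the set of 566 genes, and larger sets hold more pairs. Of 369 values of the 29 named genes under other settings none changed sign and 7 moved by more than the spread between replicates, all with a pseudocount of 0.1. Beyond fewer libraries or genes, the cause was not tested. Depth is unknown, and values near 0 in the least abundant members cannot be given an error.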

Other observations

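Models carrying the prefix BGI_novel_ in place of a locus tag were outside the rule, and 23 of 1161 within the same limits on the mean met the rest of it (1.98%, against 0.502% of locus-tag genes). Their median log2 difference was -1.43 and their median level 6.48 FPKM. In 7 of the 23 (30.4%) differentiating 3 was at least 1 below the proliferating mean, and the difference from the 106 members was not tested. These counts used all 6 libraries. BGI_novel_G000979 was the most abundant, with 41.0, 116 and 152 FPKM in differentiating callus, against 291, 293 and 214 FPKM in proliferating callus. BGI_novel_G000673 had 26.8, 19.7 and 61.6 FPKM, against 117, 94.95 and 112 FPKM. BGI_novel_G000663 had 3.92, 3.50 and 3.74 FPKM, against 8.40, 8.42 and 9.17 FPKM, so its level was even within each group. BGI_novel_G001710 and BGI_novel_G001711 had equal values in all 6 libraries and may be 1 measurement. These models were named after their values were seen.

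Among the 275 genes lower by at least 1 with or without overlap, 51 (18.5%) lay in 23 runs of neighbouring genes, and 11 of these runs held a member. The longest was a run of 4 genes, KP509_10G026900 to KP509_10G027200, with log2 differences of -1.56, -1.01, -1.32 and -1.77 and no member. It was named after its values were seen.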
